A study of Mus musculus with 9 samples.

Results

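Ribosome biogenesis is the assembly of ribosomes in the nucleolus. RNA polymerase I transcribes a long precursor of the ribosomal RNAs, small nucleolar RNA particles (snoRNPs) modify it, and large sets of processing factors cut, fold and package it into the small and the large ribosomal subunit. Growing and dividing cells need more ribosomes, and MYC and the AKT to mTORC1 pathway are known activators of these genes. The 40 genes described here code for such factors and were taken by gene symbol. All 40 were found among the 55401 genes in the table of counts, and all 40 passed the filter on low counts, which 15717 genes passed.

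RNA was sequenced from 9 whole-liver samples of female mice in 3 groups of 3. Healthy livers came from mice given neither oncogenes nor virus, and their age at collection is not given. HCC was produced in mice aged 6 weeks by rapid tail vein injection of sleeping beauty transposon plasmids for myr-AKT (EF1α promoter) and Nras-v12 (Caggs promoter), with the transposase SB11 on a plasmid. The labels also list a plasmid for N90-β-catenin, while the design text describes these tumors as RAS/AKT-induced. At 1 week after the oncogenes, AAV8-miR-22 was given to the miR-22-treated HCC group and empty AAV8 to the untreated HCC group, with livers taken at 5 weeks. The labels name the strain both as C57BL/6 and as FVB/N, and the methods of the study give FVB/N for healthy and HCC livers. Oncogenes and virus differ together between healthy and HCC livers, so their effects cannot be told apart in those comparisons. Libraries carry the replicate numbers of their labels, 1 to 3 for healthy livers and 2 to 4 for both HCC groups.

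Libraries held 16664659 to 23908392 counts. The lowest count of any member in a library was 73, for Gar1 in healthy liver 2, and the highest was 5999, for Ncl in untreated liver 4. Normalized counts of Akt1 were 2002 to 2105 (healthy), 22700 to 32454 (untreated HCC) and 13027 to 21424 (miR-22-treated HCC). Reads of the myr-AKT plasmid and of the mouse gene were not separated in these counts. All 9 hepatocyte markers were called lower in untreated HCC, where their summed level was 974000 to 1230000 normalized counts, beside 2540000 to 2630000 for healthy and 1490000 to 1870000 for miR-22-treated livers. Of the 6 cholangiocyte markers, 5 were called higher in untreated HCC, with a summed level of 64800 to 121000 there, beside 572 to 816 for healthy and 30400 to 52700 for miR-22-treated livers. A single gene made up most of either sum, Alb (mean 890470 in untreated HCC) for hepatocytes and Spp1 (mean 89639) for cholangiocytes. Among 7 stellate cell and fibroblast markers 4 were called higher and 1 lower in untreated HCC, with a summed level of 9640 to 12800, beside 4700 to 5800 and 7020 to 8620. All 3 tested of 7 neutrophil markers were called higher, with a summed level of 315 to 412 in untreated HCC, beside 33.0 to 86.6 and 285 to 454, as were all 4 tested of 5 erythroid markers, at 4530 to 6310, beside 2190 to 3300 and 4110 to 4640. Of 7 endothelial markers 3 were called lower, with a summed level of 4240 to 5330, beside 6620 to 8240 and 5540 to 7110. In the macrophage, T and NK cell and B cell lists 1 marker each was called in untreated HCC, higher in the first 2 and lower in the last. With miR-22 against untreated HCC, 6 of the 9 hepatocyte markers were called higher and 0 lower. Of the cholangiocyte markers 4 were then called lower and 0 higher, and in each other list at most 1 was called in a direction. Among all genes tested, 8.32% were called higher and 5.47% lower. No marker of these lists was at 0 in all libraries, and the part of these shifts in the results on ribosome biogenesis was not tested. In whole liver, fewer cells of a type and less RNA per cell cannot be told apart.

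Sequence near the start sites was examined first, since MYC family proteins bind the E-box CACGTG. RefSeq promoter windows (GRCm38.p6, 250 bases before to 50 after the start, both strands searched) were found for 34 of the 40 members. The E-box was in 7 of these 34 windows (20.6%), against 8.09% of the windows of 27025 genes and 11.3% of those of 11501 tested genes. The motif CCGGAAG, the core bound by ETS factors, was in 10 of 34 (29.4%), against 9.93% and 18.4%. The 7 E-boxes are shown with the E-box in capitals, 5′ to 3′ on the strand of the gene, as 30 bases located in GRCm39 so that the motif and its flanks can be read in every member window that holds it.
Nop2 (chr6:125108774-125108803, plus strand): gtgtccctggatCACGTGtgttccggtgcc
Pes1 (chr11:3913965-3913994, plus strand): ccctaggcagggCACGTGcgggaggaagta
Mybbp1a (chr11:72332173-72332202, plus strand): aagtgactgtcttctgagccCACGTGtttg
Ltv1 (chr10:13068836-13068865, minus strand): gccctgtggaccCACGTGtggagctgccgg
Utp18 (chr11:93776595-93776624, minus strand): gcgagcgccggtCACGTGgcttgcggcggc
Utp20 (chr10:88662627-88662656, minus strand): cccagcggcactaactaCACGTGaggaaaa
Wdr43 (chr17:71923215-71923244, plus strand): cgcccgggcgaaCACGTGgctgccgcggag
A match is a description of the letters and does not show that a factor binds.

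Untreated HCC was compared with healthy livers to see which of the factors differ in tumor-bearing liver. The 13 members that rose, a share near that of all genes, were 4 of the 6 snoRNP components (Nop56, Nop58, Gar1 and Nhp2) and Utp14a, Wdr75, Bysl, Nop2, Ddx18, Noc3l, Rrs1, Nolc1 and Ddx21. The other 27, with Fbl and Dkc1, did not pass the test. A gene was called at an adjusted p under 0.05 (edgeR, Benjamini-Hochberg over 15717 genes) and a fold over 1.5, and "rose" or "fell" is used for genes with an adjusted p under 0.05 whatever the fold. Called higher were 6 of 40 members (15%), Nop58, Gar1, Nop56, Nhp2, Rrs1 and Utp14a, and 0 were called lower. Of all genes tested, 22.7% were called higher and 18.1% lower, so the share of members called higher was below that of all genes. By adjusted p alone 13 members rose (32.5%, against 29.4% of all genes) and 0 fell (against 26.8%). Without healthy liver 1 the counts were 11 and 3, with Utp18, Utp20 and Ncl lower, and Ncl was also lower with DESeq2 and limma-trend. The median log2 fold change of the members was 0.17, beside 0.01 over all genes, and 28 members (70%) were above 0, beside 50.7% of all genes. Livers did not overlap between the groups for 19 members on the higher side (47.5%, against 33.9% of all genes) and for 4 on the lower side (10%, against 31.4%), namely Polr1b, Utp18, Ddx10 and Ncl.

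These values are relative to a scale that holds the middle of all genes near 0. The share of all counts taken by the members was 0.171% to 0.187% in untreated HCC, beside 0.119% to 0.127% for healthy and 0.124% to 0.142% for miR-22-treated livers. With scaling by total counts alone, the median of all genes moved to 0.43 in untreated HCC against healthy livers and to -0.23 in miR-22-treated against untreated HCC. All 40 members were then above 0 in the first comparison, with 21 called higher (against 38.1% of all genes under that scaling), and all 40 were below 0 in the second, with 15 called lower (against 13.8%). The difference between the median of the members and that of all genes was 0.16 in the first comparison and -0.28 in the second under either scaling.

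**Figure D1:**
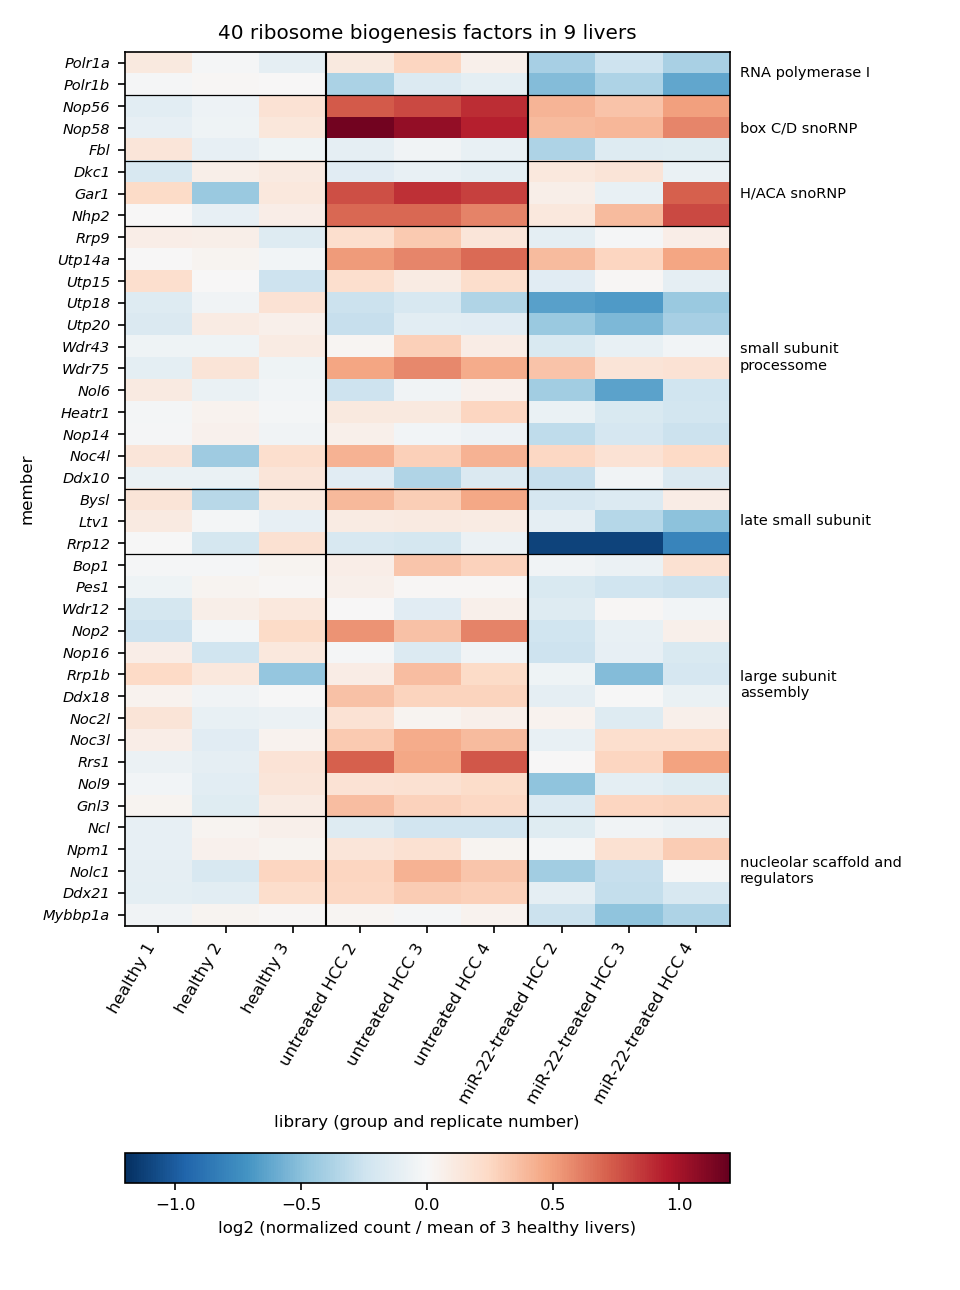
Heat map of the 40 members (rows, by role) in the 9 livers (columns), coloured by log2 of the normalized count over the mean of the 3 healthy livers, red above and blue below. Nop56, Nop58, Gar1 and Nhp2 are red in all 3 untreated HCC livers, and Rrp12 is blue in all 3 miR-22-treated livers.

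miR-22-treated HCC was compared with untreated HCC to see which of the factors differ with miR-22 in tumor-bearing liver, where both groups had received AAV8. By adjusted p alone 16 members fell (40%, against 10.4% of all genes) and 0 rose (against 13.6%), and 14 of the 16 fell by less than 1.5-fold. Rrp12 and Nop58 were called lower (2 of 40, 5.00%), beside 5.47% of all genes, and 0 were called higher, beside 8.32%. The median log2 fold change was -0.28, beside 0.00 over all genes (0.00199 before rounding), and 36 of 40 members were below 0 (90%, against 49.8% of all genes), the exceptions being Dkc1, Ddx10, Ncl and Npm1, which also turned negative with scaling by total counts. Livers did not overlap for 27 members on the lower side (67.5%, against 19.6% of all genes) and for 2, Dkc1 and Ncl, on the higher side (5.00%, against 19.7%). Just under the fold threshold lay Nop2, at -0.58, and Nolc1, at -0.56. Single livers moved these counts: Rrp12 alone was called lower without miR-22-treated liver 2 or 3, 9 members fell by adjusted p alone without miR-22-treated liver 3, and 5 were called lower without miR-22-treated liver 4, namely Rrp12, Nop58, Gar1, Nop2 and Nolc1.

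miR-22-treated HCC was also set beside healthy livers, which shares its samples with both comparisons above. Rrp12 and Utp18 were called lower in miR-22-treated HCC (2 of 40, 5.00%, against 7.05% of all genes) and 0 were called higher (against 16.9%). By adjusted p alone 9 were lower (22.5%, against 15.1%), Polr1a, Polr1b, Utp18, Utp20, Nol6, Nop14, Rrp12, Pes1 and Mybbp1a. The 4 that were higher (10%, against 21.4%) were Nop56, Nop58, Nhp2 and Utp14a, and without healthy liver 3 or miR-22-treated liver 4 they were 2, Nop56 and Nop58. Without miR-22-treated liver 2, Nhp2 was called higher (0.59) and Utp18 was not called. Livers did not overlap for 12 members on the lower side (30%, against 22.2%) and for 5 on the higher side (12.5%, against 26.6%). The median of the members was -0.09, beside 0.02 over all genes, and it was 0.10 beside 0.21 with scaling by total counts. Under that scaling the direction of the counts turned, with 7 members higher (against 31.1% of all genes) and 3 lower (against 7.55%) by adjusted p alone.

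**Figure D2:**
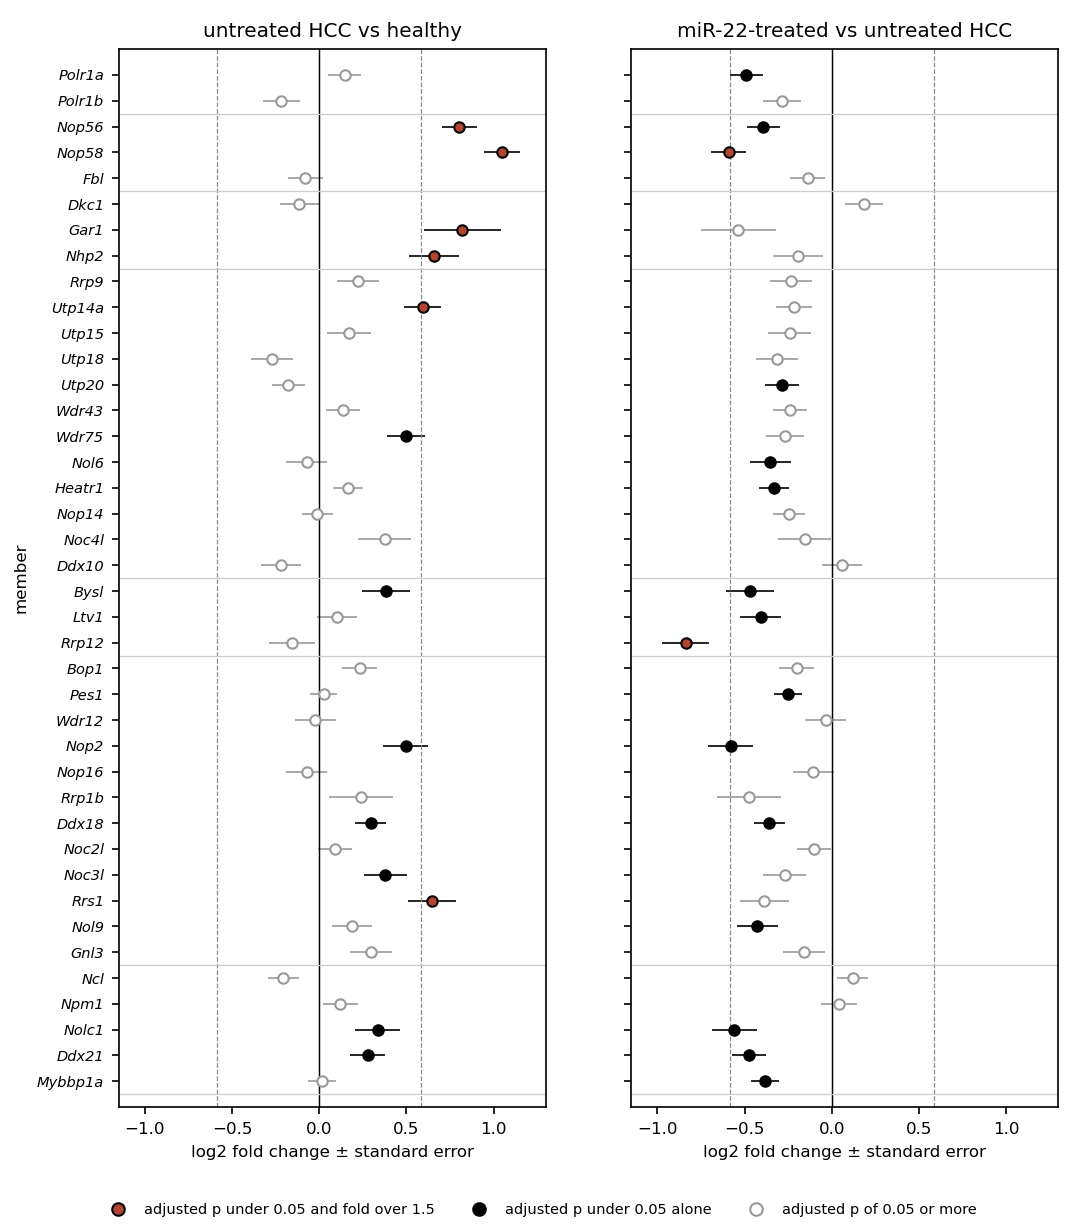
Log2 fold change with its standard error for each of the 40 members (rows, by role) in untreated HCC against healthy livers (left) and in miR-22-treated against untreated HCC (right), with dashed lines at 1.5-fold. The 6 filled red points on the left are above 0, and the 2 on the right, Nop58 and Rrp12, are below 0.

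RNA polymerase I was represented by its largest subunits. Polr1a, the largest catalytic subunit, read 742, 678 and 635 normalized counts in healthy livers, 744, 817 and 714 in untreated HCC and 518, 577 and 524 in miR-22-treated HCC. The healthy and untreated livers overlapped, and every miR-22-treated liver was below the other 6. Its log2 fold change was 0.15 ± 0.10 (SE) in untreated HCC against healthy livers (adjusted p = 0.211) and -0.49 ± 0.10 with miR-22 (adjusted p = 0.00351). Polr1b, the second largest subunit, read 437, 445 and 444 in healthy livers, 339, 394 and 407 in untreated HCC and 308, 341 and 287 in miR-22-treated HCC. Its livers did not overlap between healthy and untreated HCC, while 1 miR-22-treated liver reached into the untreated range. For Polr1b the log2 fold change was -0.22 ± 0.11 in untreated HCC (adjusted p = 0.107), -0.29 ± 0.11 with miR-22 against untreated HCC (adjusted p = 0.0780) and -0.50 ± 0.11 in miR-22-treated HCC against healthy livers (adjusted p = 0.00352).

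Box C/D snoRNPs carry the 2′-O-methylation of ribosomal RNA, with Fbl as the methyltransferase and Nop56 and Nop58 as the paired scaffold proteins. Nop58 (chromosome 1, 59724106 to 59758203, plus strand) read 455, 472 and 537 normalized counts in healthy livers, 1088, 1015 and 931 in untreated HCC and 634, 645 and 734 in miR-22-treated HCC. The 3 groups did not overlap, with untreated HCC highest and healthy lowest. Nop58 had the largest log2 fold change of the 40 in untreated HCC against healthy livers, 1.05 ± 0.10 (adjusted p = 2.85e-06). With miR-22 it fell by 0.59 on the log2 scale (SE 0.10, adjusted p = 0.00161), a 1.51-fold difference that went under 1.5-fold without untreated liver 2 (-0.54), miR-22-treated liver 2 (-0.55) or miR-22-treated liver 3 (-0.56). It was still above healthy livers after miR-22, at 0.46 ± 0.10 (adjusted p = 0.00417).

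Nop56 (chromosome 2, 130115808 to 130121238, plus strand) read 466, 490 and 573 in healthy livers, 849, 883 and 940 in untreated HCC and 675, 646 and 715 in miR-22-treated HCC. Its groups were in the same order as those of Nop58 and did not overlap. On the log2 scale Nop56 was at 0.80 ± 0.10 in untreated HCC (adjusted p = 1.87e-05), -0.39 ± 0.10 with miR-22 (adjusted p = 0.0122) and 0.41 ± 0.10 in miR-22-treated HCC against healthy livers (adjusted p = 0.00628). Fbl read 689, 584 and 601 in healthy livers, 580, 606 and 587 in untreated HCC and 483, 563 and 565 in miR-22-treated HCC. The methyltransferase therefore lay within the healthy range or just below it in untreated HCC, at a log2 fold change of -0.08 ± 0.10 (adjusted p = 0.514). With miR-22 Fbl was at -0.14 ± 0.10 (adjusted p = 0.351), and its value is uncertain because 690 bases of it match a Tulp4 transcript at 99.6% identity. Libraries that do not mark strand cannot separate reads of exons that overlap on opposite strands, which touches 27 of the 40 members by 1 to 1246 bases, Nop56 by 711 (2810036E18Rik and Idh3b) and Fbl by 700 (Gm31024 and Gm73807).

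H/ACA snoRNPs carry pseudouridylation of ribosomal RNA and also bind telomerase RNA, with Dkc1 as the pseudouridine synthase and Gar1 and Nhp2 as core partners. Gar1 (chromosome 3, 129618560 to 129625045, minus strand) read 143, 89 and 132 in healthy livers, 207, 222 and 214 in untreated HCC and 128, 114 and 199 in miR-22-treated HCC. Untreated HCC was above every other liver, and miR-22-treated liver 4 stood close to it while the other 2 treated livers were in the healthy range. Gar1 was at a log2 fold change of 0.82 ± 0.22 in untreated HCC (adjusted p = 0.00685) and -0.54 ± 0.22 with miR-22 (adjusted p = 0.0934), which became -0.83 (adjusted p = 0.00993) without miR-22-treated liver 4. Nhp2 (chromosome 11, 51510383 to 51520806, plus strand) read 379, 353 and 400 in healthy livers, 609, 607 and 570 in untreated HCC and 413, 490 and 654 in miR-22-treated HCC.

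The treated livers thus spanned the gap between the other groups for Nhp2, with liver 4 above the untreated range. Nhp2 rose in untreated HCC by a log2 fold change of 0.66 ± 0.14 (adjusted p = 0.00182), was at -0.19 ± 0.14 with miR-22 (adjusted p = 0.355) and was above healthy livers after it, at 0.46 ± 0.15 (adjusted p = 0.0258). Dkc1 read 390, 469 and 481 in healthy livers, 406, 420 and 413 in untreated HCC and 489, 496 and 423 in miR-22-treated HCC. Healthy and untreated livers overlapped for Dkc1, and the treated livers lay above the untreated ones. Its log2 fold change was -0.11 ± 0.11 in untreated HCC (adjusted p = 0.398) and 0.18 ± 0.11 with miR-22 (adjusted p = 0.255). Exons of Dkc1 overlap those of Mpp1 on the opposite strand by 1246 bases and those of Nhp2 overlap Rmnd5b by 967.

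**Figure D3:**
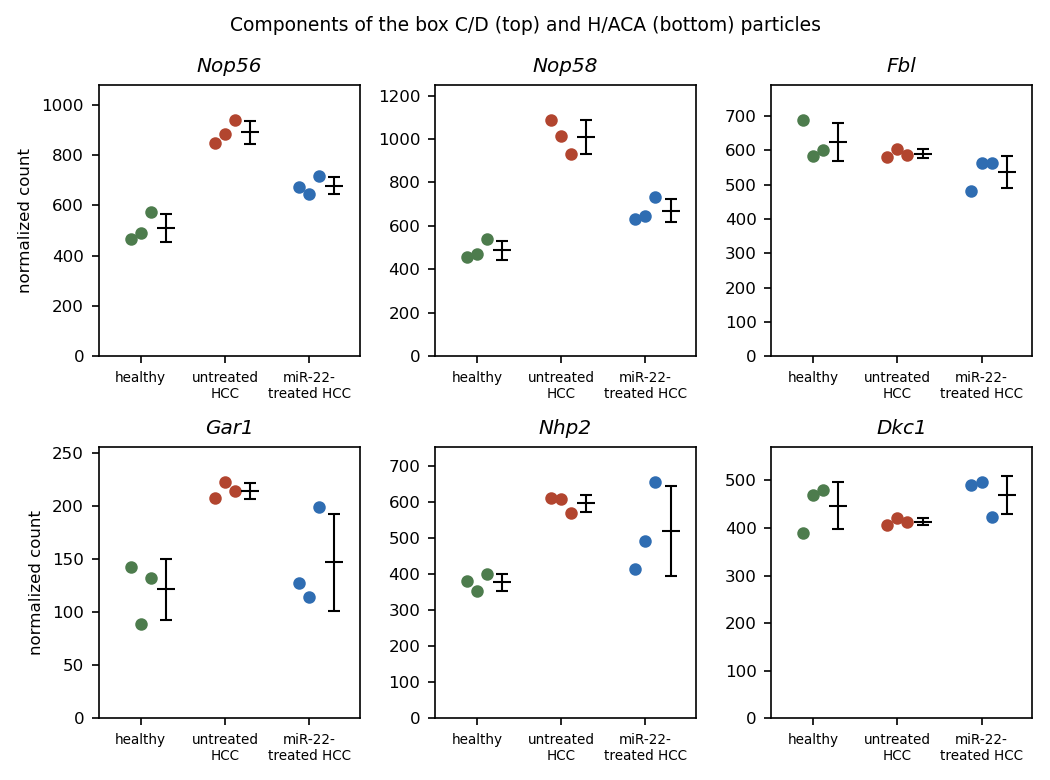
Normalized counts of box C/D components (Nop56, Nop58, Fbl) and H/ACA components (Gar1, Nhp2, Dkc1) in each liver (dots) with the mean and SD of 3 livers per group. For Nop56, Nop58, Gar1 and Nhp2 the 3 untreated HCC livers lie above all healthy livers, whereas Fbl and Dkc1 overlap.

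The ratio of a partner to the enzyme of its particle does not depend on the scaling of libraries. These pairs were chosen after the values were seen and were not tested, and the limit on Fbl given above holds for its ratios. The log2 ratio of Nop58 to Fbl was 0.66 to 0.91 in untreated HCC, beside -0.60 to -0.16 for healthy and 0.20 to 0.39 for miR-22-treated livers. That of Nop56 to Fbl was 0.54 to 0.68, beside -0.56 to -0.07 and 0.20 to 0.48. Neither ratio overlapped between groups, and the treated livers lay between the others. For Gar1 to Dkc1 the ratio was -0.97 to -0.92 in untreated HCC, beside -2.40 to -1.45 for healthy and -2.12 to -1.08 for miR-22-treated livers. Nhp2 to Dkc1 gave 0.46 to 0.59, beside -0.41 to -0.04 and -0.25 to 0.63. The treated livers overlapped the healthy ones for both H/ACA ratios. In the complex of Pes1, Bop1 and Wdr12 in large subunit assembly, the groups overlapped for Wdr12 to Pes1, at -1.22 to -1.03 in untreated HCC, beside -1.24 to -0.97 and -1.05 to -0.83. For Bop1 to Pes1 the untreated livers overlapped the healthy ones, and the treated livers (-0.20 to 0.10) lay above the healthy ones (-0.38 to -0.30). Ratios outside the snoRNPs also separated untreated from healthy livers. Polr1a to Polr1b was 0.81 to 1.13 in untreated HCC, beside 0.52 to 0.76 for healthy livers, Noc2l to Noc3l was 1.31 to 1.58, beside 1.60 to 1.79, and Nop14 to Noc4l was 0.73 to 0.90, beside 0.98 to 1.70.

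The small subunit processome, the large particle that folds and cuts the precursor of the small subunit RNA, was represented by 12 members. In untreated HCC 2 of them rose, Utp14a and Wdr75 (16.7%, against 29.4% of all genes), and 0 fell, and with miR-22 3 fell, Utp20, Nol6 and Heatr1 (25%, against 10.4% of all genes). Utp14a, a cofactor of the helicase Dhx37 in processome disassembly, read 266, 271 and 260 in healthy livers, 378, 400 and 425 in untreated HCC and 345, 318 and 370 in miR-22-treated HCC. Its groups did not overlap, and its log2 fold change in untreated HCC was 0.59 ± 0.10 (adjusted p = 0.000367). That 1.51-fold rise was under 1.5-fold without healthy liver 1 (0.58), healthy liver 3 (0.57) or untreated liver 4 (0.55). With miR-22 Utp14a was at -0.22 ± 0.10 (adjusted p = 0.149). Wdr75, part of the early t-UTP subcomplex that is tied to transcription by RNA polymerase I, read 284, 343 and 296 in healthy livers, 426, 459 and 420 in untreated HCC and 392, 344 and 347 in miR-22-treated HCC. No healthy liver reached the untreated or the treated livers, and the log2 fold change of Wdr75 was 0.50 ± 0.11 in untreated HCC (adjusted p = 0.00193) and -0.27 ± 0.11 with miR-22 (adjusted p = 0.0945).

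Utp18, a WD-repeat component that recruits the exosome, read 350, 378 and 440 in healthy livers, 326, 340 and 302 in untreated HCC and 249, 244 and 285 in miR-22-treated HCC. The groups did not overlap, with healthy livers highest and treated livers lowest. The log2 fold change of Utp18 was -0.27 ± 0.12 in untreated HCC (adjusted p = 0.0687, and 0.15 with scaling by total counts), -0.31 ± 0.12 with miR-22 (adjusted p = 0.0799) and -0.59 ± 0.12 in miR-22-treated HCC against healthy livers (adjusted p = 0.00249). The last value went under 1.5-fold without healthy liver 3 (-0.50), miR-22-treated liver 2 (-0.57) or miR-22-treated liver 3 (-0.54). It was also under 1.5-fold with upper-quartile factors, no filter on low counts, at least 10 counts in every library or limma-trend (-0.58 to -0.56) and with scaling by total counts (-0.40), and glmTreat did not call it. Exons of Utp18 overlap Mbtd1 on the opposite strand by 911 bases.

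Utp20, a large scaffold protein of the processome, read 812, 985 and 959 in healthy livers, 761, 843 and 835 in untreated HCC and 674, 631 and 697 in miR-22-treated HCC. All 3 treated livers were below the other 6, and the log2 fold change was -0.18 ± 0.10 in untreated HCC (adjusted p = 0.132), -0.28 ± 0.10 with miR-22 (adjusted p = 0.0483) and -0.46 ± 0.10 in miR-22-treated HCC against healthy livers (adjusted p = 0.00259). Heatr1, the homolog of yeast Utp10 and also a t-UTP protein, read 651, 680 and 649 in healthy livers, 717, 717 and 788 in untreated HCC and 624, 580 and 565 in miR-22-treated HCC. Every untreated liver was above every healthy liver, and every treated liver was below both groups. Its log2 fold change was 0.17 ± 0.09 in untreated HCC (adjusted p = 0.116) and -0.33 ± 0.09 with miR-22 (adjusted p = 0.0154). The other 7 members of this group (Rrp9, Utp15, Wdr43, Nol6, Nop14, Noc4l and Ddx10) did not pass the test in untreated HCC. Their log2 fold changes there ran from -0.22 for Ddx10 to 0.37 for Noc4l, the latter with an adjusted p of 0.0521 and with healthy liver 2 (156 normalized counts) below the other healthy livers (233 and 241).

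Late small subunit assembly, where the precursor is exported and finished in the cytoplasm, held the member with the largest fall after miR-22. Rrp12, a HEAT-repeat protein of pre-ribosome export (chromosome 19, 41847867 to 41884649, minus strand), read 393, 341 and 447 normalized counts in healthy livers, 345, 340 and 375 in untreated HCC and 182, 182 and 227 in miR-22-treated HCC. Healthy and untreated livers overlapped, and the treated livers were far below both. The log2 fold change of Rrp12 was -0.16 ± 0.13 in untreated HCC (adjusted p = 0.326), -0.84 ± 0.13 with miR-22 against untreated HCC (adjusted p = 0.00114) and -0.99 ± 0.14 in miR-22-treated HCC against healthy livers (adjusted p = 0.000128). It was thus 1.79-fold below untreated HCC and 1.99-fold below healthy livers. With scaling by total counts Rrp12 was at -1.07 and -0.81 in these comparisons, both still called lower.

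Bysl, an early binder of the small subunit precursor that is needed for its maturation, read 395, 281 and 387 in healthy livers, 463, 435 and 489 in untreated HCC and 307, 316 and 377 in miR-22-treated HCC. Untreated HCC was above all other livers, and the treated livers were inside the healthy range. Bysl rose by 0.38 ± 0.14 on the log2 scale (adjusted p = 0.0308) and fell with miR-22, at -0.47 ± 0.14 (adjusted p = 0.0266). Ltv1, an assembly factor of the beak of the small subunit, was at 0.10 ± 0.12 in untreated HCC and fell with miR-22 by 0.41 on the log2 scale (SE 0.12, adjusted p = 0.0244).

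**Figure D4:**
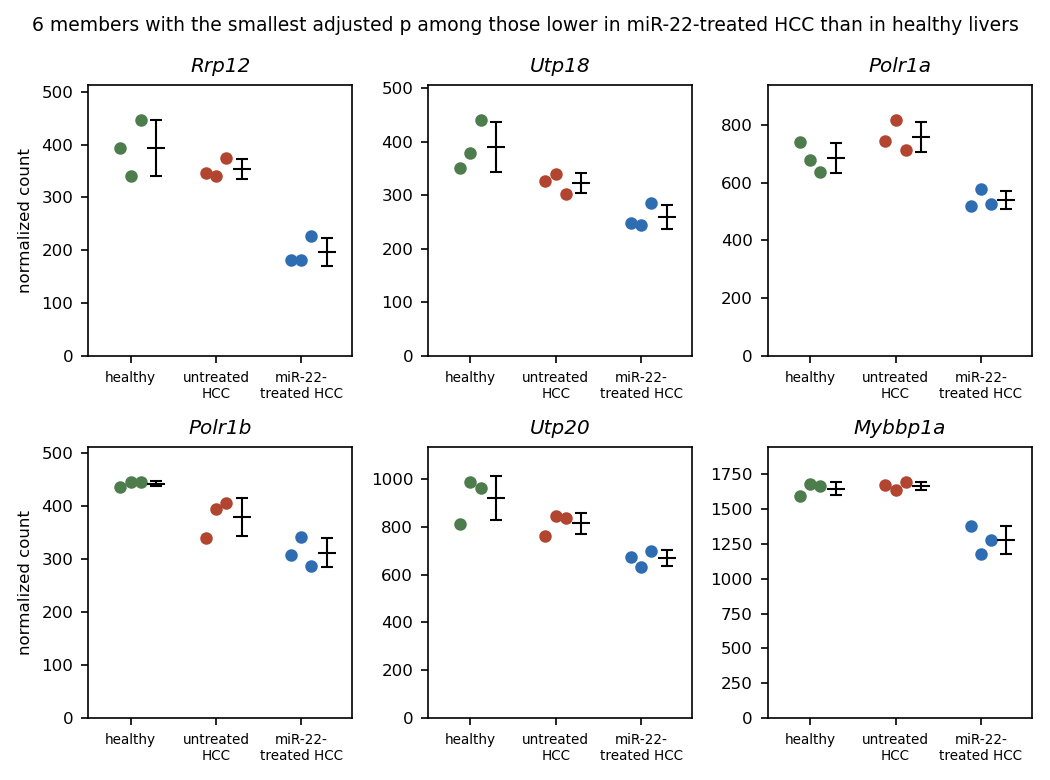
Normalized counts of Rrp12, Utp18, Polr1a, Polr1b, Utp20 and Mybbp1a in each liver (dots) with the mean and SD of 3 livers per group. These 6 were picked for the smallest adjusted p among members lower in miR-22-treated HCC than in healthy livers. In each panel the 3 miR-22-treated livers lie below all 3 healthy livers, and for Rrp12 they read 182 to 227 against 341 to 447. The same held for 12 of the 40 members (30%, against 22.2% of all genes).

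Large subunit assembly was represented by 12 members, of which 4 rose in untreated HCC (Nop2, Ddx18, Noc3l and Rrs1) and 4 fell with miR-22 (Nop2, Ddx18, Pes1 and Nol9). Each is 33.3% of the 12, beside 29.4% of all genes that rose in the first comparison and 10.4% that fell in the second. Rrs1, which helps bring the 5S RNA particle into the subunit, read 271, 264 and 319 in healthy livers, 467, 393 and 478 in untreated HCC and 285, 340 and 397 in miR-22-treated HCC. Every untreated liver was above every healthy liver, and treated liver 4 reached the untreated range. For Rrs1 the log2 fold change was 0.65 ± 0.14 in untreated HCC (adjusted p = 0.00160) and -0.39 ± 0.14 with miR-22 (adjusted p = 0.0602), and its exons overlap 2610203C22Rik on the opposite strand by 806 bases. Nop2, a cytosine methyltransferase of the large subunit RNA also known as the proliferation antigen p120, read 424, 496 and 593 in healthy livers, 732, 643 and 762 in untreated HCC and 428, 474 and 526 in miR-22-treated HCC. The treated livers lay inside the healthy range, and the untreated livers were above both groups. Nop2 rose by 0.50 ± 0.13 on the log2 scale in untreated HCC (adjusted p = 0.00548) and was at -0.58 ± 0.13 with miR-22 (adjusted p = 0.00698).

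Ddx18, a DEAD-box helicase, read 452, 429 and 440 in healthy livers, 561, 531 and 531 in untreated HCC and 408, 440 and 418 in miR-22-treated HCC. Its treated livers also overlapped the healthy ones and not the untreated ones. Ddx18 was at a log2 fold change of 0.30 ± 0.09 in untreated HCC (adjusted p = 0.0127) and -0.36 ± 0.09 with miR-22 (adjusted p = 0.0124). Nop16 read 367, 295 and 378 in healthy livers, 344, 309 and 336 in untreated HCC and 292, 323 and 305 in miR-22-treated HCC. All 3 groups of Nop16 overlapped, with log2 fold changes of -0.07 ± 0.12 (adjusted p = 0.621) and -0.10 ± 0.12 (adjusted p = 0.572). None of Pes1, Bop1 and Wdr12, the PeBoW complex, passed the test in untreated HCC, where they were at 0.03 ± 0.08, 0.23 ± 0.10 and -0.02 ± 0.12, with adjusted p of 0.794, 0.0636 and 0.886. For Bop1 every untreated liver (654, 776 and 746) was above every healthy liver (611, 611 and 630). With miR-22 Pes1 fell by 0.25 on the log2 scale (SE 0.08, adjusted p = 0.0344). The remaining members (Rrp1b, Noc2l, Noc3l, Nol9 and Gnl3) had log2 fold changes of 0.09 to 0.38 in untreated HCC and of -0.47 to -0.10 with miR-22.

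Nucleolar scaffold and regulator genes made up the last group, of 5 members. Per kilobase of annotated exons, Ncl and Npm1 had the highest levels of the 40 in healthy livers, 497 and 487 normalized counts, and Rrp1b the lowest, 23.3. The length used merges the exons of all annotated transcripts of a gene and can exceed that of the transcripts present. The scale therefore compares genes only roughly, and the order of close values, such as Rrp1b and Wdr12 (28.9), depends on the annotation. Ncl, nucleolin, an RNA-binding protein of the precursor, read 4774, 5227 and 5306 normalized counts in healthy livers, 4583, 4344 and 4348 in untreated HCC and 4608, 4968 and 4862 in miR-22-treated HCC. Untreated HCC was below both other groups, but the log2 fold change of -0.21 ± 0.09 missed the test (adjusted p = 0.0671), as did that of 0.12 ± 0.09 with miR-22 (adjusted p = 0.361). Ncl took 18.0% to 19.5% of the counts of all members in healthy livers and 14.6% to 15.4% in untreated HCC. Npm1, nucleophosmin, a chaperone of the nucleolus that also moves to the cytoplasm, was at 0.12 ± 0.10 (adjusted p = 0.334) and 0.04 ± 0.10 (adjusted p = 0.809) on the log2 scale.

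Ddx21, a helicase that works with RNA polymerases I and II, read 1095, 1089 and 1374 in healthy livers, 1408, 1467 and 1442 in untreated HCC and 1098, 974 and 1036 in miR-22-treated HCC. Untreated livers were above all others, and the treated livers reached from below the healthy range into it. Its log2 fold change was 0.28 ± 0.10 in untreated HCC (adjusted p = 0.0297) and -0.47 ± 0.10 with miR-22 (adjusted p = 0.00511). Nolc1, a chaperone of snoRNPs in the nucleolus, rose by 0.34 ± 0.13 in untreated HCC (adjusted p = 0.0428) and was at -0.56 ± 0.13 with miR-22 (adjusted p = 0.00893). Mybbp1a, a nucleolar MYB-binding protein, read 1593, 1678 and 1663 in healthy livers, 1670, 1632 and 1690 in untreated HCC and 1374, 1175 and 1273 in miR-22-treated HCC. The first 2 groups overlapped, and the treated livers were below both. Its log2 fold change was 0.02 ± 0.08 in untreated HCC (adjusted p = 0.875), -0.39 ± 0.08 with miR-22 (adjusted p = 0.00520) and -0.37 ± 0.08 in miR-22-treated HCC against healthy livers (adjusted p = 0.00366), the last being -0.18 (adjusted p = 0.136) with scaling by total counts.

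Some members are hosts of snoRNA genes. Small nucleolar RNAs of mammals are mostly cut from introns of host genes, and 6 members (Nop56, Nop58, Dkc1, Wdr43, Gnl3 and Ncl) contain 19 annotated snoRNA genes in GRCm39. That is 15% of the members, beside 1.59% of 13667 tested protein-coding genes. Their log2 fold changes in untreated HCC ran from -0.21 for Ncl to 1.05 for Nop58, so hosts were found among members that rose and among members that did not pass the test.

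A further 138 ribosome biogenesis genes were listed, of which 134 were in the table and 133 were tested. In untreated HCC 10 were called higher and 4 lower (10.5% in all, against 40.8% of all genes), and by adjusted p alone 24 were higher and 14 lower (against 29.4% and 26.8% of all genes). With miR-22 1 was called higher and 0 lower (against 8.32% and 5.47%), and by adjusted p alone 3 rose and 15 fell (2.26% and 11.3%, against 13.6% and 10.4%). Their median log2 fold changes were 0.07 and -0.14, beside 0.17 and -0.28 for the 40 members. Both lists were chosen with earlier results of these data known, and the difference between them was not tested. Rrn3, the initiation factor that joins RNA polymerase I to its promoter, read 379, 428 and 442 in healthy livers, 699, 647 and 559 in untreated HCC and 492, 512 and 513 in miR-22-treated HCC. Its groups did not overlap, and its log2 fold change was 0.61 ± 0.11 in untreated HCC (adjusted p = 0.000354) and -0.33 ± 0.11 with miR-22 (adjusted p = 0.0399). Ubtf, the upstream binding factor of the same promoter, was at 0.17 ± 0.10 (adjusted p = 0.168) and -0.27 ± 0.10 (adjusted p = 0.0810).

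Taf1d, a subunit of the promoter selectivity factor, was called higher in untreated HCC at 0.64 ± 0.16 (adjusted p = 0.00371), as were the large subunit factors Ppan, at 0.86 ± 0.12 (adjusted p = 5.54e-05), and Eif6, at 0.74 ± 0.09 (adjusted p = 2.23e-05). Utp23 of the small subunit was called higher at 0.85 ± 0.17 (adjusted p = 0.00104). Tcof1, treacle, which couples transcription and modification, rose by 0.57 ± 0.15 (adjusted p = 0.00600) and Ruvbl2, a helicase of snoRNP assembly, by 0.33 ± 0.11 (adjusted p = 0.0260). The fall of Rcl1, an early small subunit factor, was the largest of the list. Rcl1 read 3037, 2454 and 2474 in healthy livers, 1065, 1030 and 1386 in untreated HCC and 2144, 2508 and 2122 in miR-22-treated HCC, with log2 fold changes of -1.19 ± 0.13 (adjusted p = 7.45e-06) and 0.96 ± 0.13 (adjusted p = 0.000521). Pop5, of RNase MRP, and Exosc5, of the exosome, were called lower in untreated HCC at -0.78 ± 0.13 and -0.75 ± 0.13 (adjusted p = 0.000190 and 0.000294) and rose with miR-22 by 0.43 ± 0.13 and 0.44 ± 0.13 (adjusted p = 0.0270 for both).

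Known inputs to the pathway are given beside the members as values. Of 12 genes on the AKT to mTORC1 list, 4 were called higher and 2 lower in untreated HCC (against 22.7% and 18.1% of all genes), and by adjusted p alone 4 and 5. With miR-22 1 was called higher and 2 lower (against 8.32% and 5.47%). Akt1 was at 3.82 ± 0.20 in untreated HCC against healthy livers and -0.79 ± 0.18 with miR-22 on the log2 scale (adjusted p = 2.90e-08 and 0.00786), and Nras at 1.29 ± 0.09 and -0.36 ± 0.09 (adjusted p = 2.46e-07 and 0.0129). HCC livers were given plasmids for myr-AKT and Nras-v12, and both genes are among those called higher. Reads of plasmid and mouse copies were not separated, so these values may hold plasmid RNA and need not show the mouse genes. Ddit4, an inhibitor of mTORC1, was at 3.57 ± 0.21 and -0.76 ± 0.18 (adjusted p = 7.05e-08 and 0.00962). Named after their values were seen, Rptor and Mtor, subunits of mTORC1, fell in untreated HCC, at -0.60 ± 0.09 and -0.32 ± 0.09 (adjusted p = 0.000105 and 0.0101). Of 13 MYC network genes, 3 were called higher and 4 lower in untreated HCC, and 2 higher and 1 lower with miR-22, beside the same shares of all genes. Myc itself read 84, 90 and 205 in healthy livers, 252, 178 and 228 in untreated HCC and 241, 129 and 215 in miR-22-treated HCC. All 3 groups overlapped, and the log2 fold change of Myc was 0.78 ± 0.31 (adjusted p = 0.04998) in untreated HCC and -0.16 ± 0.31 with miR-22 (adjusted p = 0.741). Mycn was at 4.33 ± 0.25 and -0.84 ± 0.19 (adjusted p = 5.20e-08 and 0.00702), and Mlxipl, a glucose-responsive relative, at -1.67 ± 0.17 and 1.04 ± 0.17 (adjusted p = 4.09e-06 and 0.00121).

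Among 7 genes of the nucleolar stress route to p53, 4 were called higher in untreated HCC (Cdkn1a, Cdkn2a, Mdm2 and Trp53), against 22.7% of all genes. With miR-22 3 were called lower (Cdkn1a, Cdkn2a and Trp53), against 5.47% of all genes. Rpl11 and Rpl5, the ribosomal proteins that bind Mdm2 in this route, were at -0.08 ± 0.11 and 0.11 ± 0.09 in untreated HCC (adjusted p = 0.540 and 0.302), and Nop53 fell by 0.46 on the log2 scale (SE 0.10, adjusted p = 0.00129). Cdkn1a was at 6.21 ± 0.31 and -0.93 ± 0.21 (adjusted p = 2.17e-08 and 0.00859) and Trp53 at 1.23 ± 0.13 and -0.59 ± 0.13 (adjusted p = 7.32e-06 and 0.00682). Of 14 proliferation genes 13 were called higher in untreated HCC (92.9%, against 22.7% of all genes), with a median log2 fold change of 2.09, beside 0.17 for the members. With miR-22 5 of the 14 were called lower (35.7%, against 5.47% of all genes), and the median of the 14 was -0.33, beside -0.28 for the members. Mki67 was at 3.67 ± 0.17 and -0.64 ± 0.15 (adjusted p = 1.53e-08 and 0.00798) and Ccna2 at 4.72 ± 0.24 and -0.60 ± 0.17 (adjusted p = 2.45e-08 and 0.0239). In miR-22-treated HCC against healthy livers 13 of the 14 were still called higher (92.9%, against 16.9% of all genes). Their list had a median of 1.74 there, while the 40 members had a median of -0.09.

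**Figure D5:**
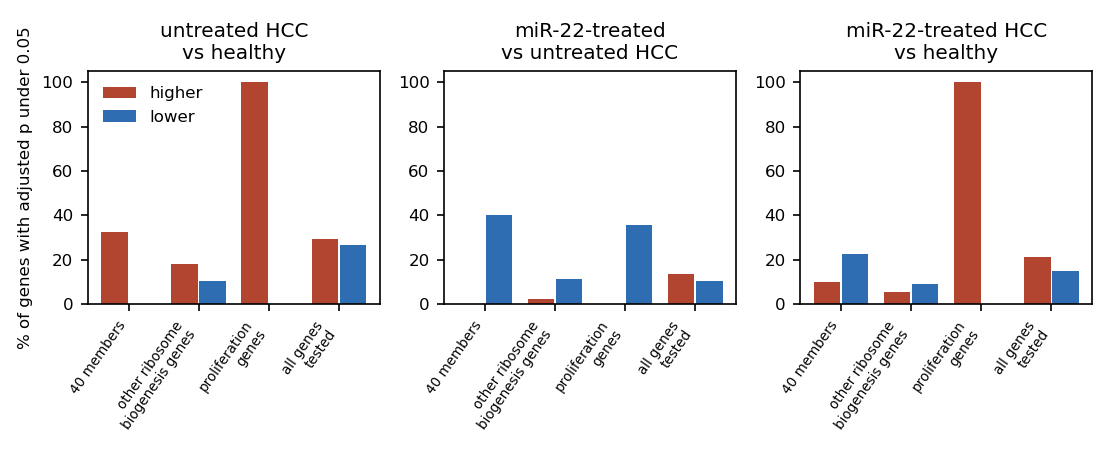
Percentage of genes with an adjusted p under 0.05, higher (red) or lower (blue), among the 40 members, the other ribosome biogenesis genes, the proliferation genes and all genes tested, in the 3 comparisons. With miR-22 against untreated HCC 40% of the members fell, beside 11.3% of the other ribosome biogenesis genes and 10.4% of all genes. The lists were chosen with earlier results of these data known, and the difference between them was not tested.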

How the data were processed

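RNA-seq of 9 whole livers was analysed. Per the labels and methods, libraries were made with a kit that does not mark strand. The authors estimated reads per gene with Salmon on GRCm39, summed them with tximport, and deposited the estimated counts as whole numbers without normalization. Per the submitters' processing notes, FastQC 0.11.7 and DESeq2 1.18 were also used. The authors also deposited signal values, the counts divided by a size factor per library, which were not used here.

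Counts were filtered with filterByExpr, scaled by TMM and fitted with all 3 groups together and no covariates in edgeR 4.0.16 (R 4.3.3), using its two-sided quasi-likelihood F test and Benjamini-Hochberg adjustment over 15717 genes. Calls needed an adjusted p under 0.05 and a fold over 1.5. Normalized counts are TMM-normalized, and errors are SD over 3 livers or the standard error of the log2 fold change. The labels number the libraries of a group without stating that each is a separate mouse, so p-values measure the spread between these samples, which may be technical. The members, role lists and pathway lists were chosen with earlier results of these data known. Full statistics go to members with the smallest p in each role list, the largest fall or smallest rise in untreated HCC, and members called lower, and values of other members are ranges or were named after they were seen. Of the other ribosome biogenesis symbols 4 were not matched. Annotation was GENCODE vM39, and near-identical transcripts were sought with BLAST+ 2.17.0. Scripts were tested on simulated data. Libraries of a group differed by more than sampling noise. Alternatives were DESeq2 1.42.0, limma-trend 3.58.1, glmTreat, other scalings and filters, a fit to the 2 groups compared, a replicate block and each liver left out. The count of members past the adjusted p alone was followed under each alternative as an addition made after the data were seen. Plots used matplotlib 3.10.9.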

Additional observations from a re-analysis of the deposited data

How the results depend on the processing

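Counting error, 3 livers per group and the fold threshold limit these results, since several members lie close to 1.5-fold. In untreated HCC against healthy livers, 6 members were called with edgeR, and 13 with no fold threshold, 21 with total counts only and 2 with glmTreat (Nop56 and Nop58). The other ribosome biogenesis genes called went from 14 to 51 with total counts only, and members past the adjusted p alone from 13 to 35. With miR-22 against untreated HCC, 2 members were called, and 16 with no fold threshold, 4 with DESeq2 or upper-quartile factors, 15 with total counts only and 0 with glmTreat. With total counts only, 33 rather than 16 passed the adjusted p alone and 19 rather than 1 of the other genes were called. In miR-22-treated HCC against healthy livers, 2 members were called, and 13 with no fold threshold, 4 with total counts only (3 higher and 1 lower), and 1 with upper-quartile factors, no filter on low counts, at least 10 counts in every library, limma-trend or glmTreat. The other genes called there went from 1 to 5 with total counts only. With each liver left out, members called were 5 to 6, 1 to 5 and 1 to 2 in the 3 comparisons (in the last, 1 higher and 1 lower without miR-22-treated liver 2), members past the adjusted p alone 9 to 14, 9 to 18 and 9 to 13, and other genes called 10 to 16, 1 to 3 and 1 to 3 (above 1 without untreated liver 4, healthy liver 1 or 2, or miR-22-treated liver 2 or 4). The cause of these shifts was not tested.

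Same-numbered untreated and treated livers did not deviate together (correlations of -0.23 to -0.12 over 3 pairs), and those of different number gave -0.02 to 0.13, so the numbers were not taken as pairs. With a replicate block, 4, 3 and 2 members were called, and 7 (untreated HCC against healthy livers) and 6 (miR-22-treated HCC against healthy livers, all 6 lower) passed the adjusted p alone, with 3 other genes called in the last. There Nop56, Nop58, Nhp2 and Utp14a, higher without the block, had adjusted p of 0.0634 to 0.163. The block turned the sign of Mybbp1a in untreated HCC (-0.012), and in miR-22-treated HCC against healthy livers that of Rrp9 (0.0256), Utp15 (0.0431), Bop1 (-0.029) and Noc2l (0.0507).

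With total counts only, log2 fold changes in untreated HCC turned positive for Polr1b (0.21), Fbl (0.34), Dkc1 (0.31), Utp18 (0.15), Utp20 (0.25), Nol6 (0.35), Nop14 (0.41), Ddx10 (0.20), Rrp12 (0.27), Wdr12 (0.40), Nop16 (0.35) and Ncl (0.22). With miR-22 against untreated HCC they turned negative for Dkc1 (-0.0564), Ddx10 (-0.18), Ncl (-0.12) and Npm1 (-0.20). In miR-22-treated HCC against healthy livers they turned positive for Rrp9 (0.18), Utp15 (0.11), Wdr43 (0.0868), Heatr1 (0.0237), Ddx10 (0.0234), Bysl (0.10), Wdr12 (0.13), Nop2 (0.11), Nop16 (0.00752), Ddx18 (0.12), Noc2l (0.18) and Ncl (0.10). Upper-quartile factors and at least 10 counts in every library gave Nop14 0.0364 and 0.0352 and Wdr12 0.0247 and 0.023 in untreated HCC, and the latter gave Rrp9 0.0175 and Noc2l 0.0162 in miR-22-treated HCC against healthy livers. Leaving out 1 liver moved across 0 in untreated HCC Mybbp1a (-0.0195 to 0.0335), Nol6 (-0.14 to 0.00972), Nop14 (-0.0456 to 0.0148), Pes1 (-0.0112 to 0.0372) and Wdr12 (-0.13 to 0.0325). It did so with miR-22 against untreated HCC for Ddx10 (-0.00732 to 0.11), Npm1 (-0.036 to 0.12) and Wdr12 (-0.09 to 0.00766), and in miR-22-treated HCC against healthy livers for Bop1 (-0.0534 to 0.0771), Dkc1 (-0.0361 to 0.14), Gar1 (-0.00859 to 0.43), Noc2l (-0.0662 to 0.0515), Nop2 (-0.21 to 0.0344), Rrp9 (-0.10 to 0.023) and Utp15 (-0.20 to 0.0249).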

Other observations

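Long non-coding RNAs named Snhg are hosts of small nucleolar RNAs and were looked at after the values of the snoRNP proteins were seen. Of 17 Snhg symbols, 14 were tested, and in untreated HCC against healthy livers 5 were called higher and 0 lower, beside 22.7% and 18.1% of all genes. Snhg18 read 18, 21 and 13 normalized counts in healthy livers, 182, 217 and 138 in untreated HCC and 95, 69 and 98 in miR-22-treated HCC. Its groups did not overlap, and it was the 1 Snhg gene called lower with miR-22, at a log2 fold change of -1.02 ± 0.22 (edgeR adjusted p = 0.00641). Snhg15 was at 1.68 ± 0.19 in untreated HCC (adjusted p = 1.12e-05), Snhg4 at 1.39 ± 0.34 (adjusted p = 0.00383) and Snhg1, which carries several box C/D snoRNAs, at 0.68 ± 0.14 (adjusted p = 0.00142). Snhg11 was at 4.26 ± 0.38 in untreated HCC (adjusted p = 1.48e-06) and at -0.15 ± 0.27 with miR-22 (adjusted p = 0.743). Snhg12 was within its healthy range in untreated HCC, at -0.05 ± 0.14 (adjusted p = 0.796).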
